A study of Mus musculus with 24 samples.

Results

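Injured dorsal root ganglia of mice labelled CAST were compared with injured ganglia of mice labelled C57, both collected 5 days after crush of the sciatic nerve (label Ax5d). The comparison was defined by the sample titles and used 4 libraries of each strain, 8 of the 24 libraries of the series. It covered all 38215 genes of the deposited values, of which 27045 passed a filter on low values and 11170 did not. Ganglia labelled naive, 4 libraries from CAST and 4 from C57, were used to see which strain differences were present without the crush. Injured ganglia of a further strain, DBA, are quoted only as levels. The labels' treatment protocol mentions sham injury where the sample labels say naive, and the labels do not settle which was done. The labels give no age, sex, substrain or number of pooled ganglia, and separate animals are stated only through the word quadruplicate in the series design. The series title names the CAST/Ei strain and is about regrowth of axons after damage to brain and spinal cord. Other strains of the design were not analysed here.

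A dorsal root ganglion holds the cell bodies of sensory neurons, each wrapped by satellite glial cells, among Schwann cells, fibroblasts, blood vessels and macrophages. When the peripheral axon is crushed, the neurons switch on transcription factors, growth-associated genes and neuropeptides, and macrophages accumulate in the ganglion. Type I interferons signal through the receptor encoded by Ifnar1 and Ifnar2 to a complex that holds Stat2 and Irf9 and binds a response element in the promoters of antiviral genes. Many genes of MHC class I, whose products show peptides on the cell surface, answer to the same signal.

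Levels are given in FPKM as the authors deposited them, that is, fragments divided by kilobases of the gene and by the library total in units of 1e6 reads. The kilobase term was found to be the whole genomic span of a gene, introns included, so levels of different genes are not compared with each other. A log2 difference is CAST minus C57 on the log2(FPKM + 1) scale with its standard error (SE), and a fold is a ratio of mean FPKM. The log2 difference understates the change of genes with a low FPKM. Calls were made where the adjusted p of limma was under 0.05. CPM stands for estimated reads of a gene per 1e6 reads of the library. Means are given ± SD over 4 libraries. In bulk tissue, fewer cells of a type and less RNA per cell cannot be told apart. The reads were aligned to the mm10 genome, which is that of a C57 mouse, so strain and the fit of the reads to the reference genome cannot be told apart.

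Library totals estimated from the values were 111.48 to 145.41 M reads in injured CAST ganglia and 51.37 to 124.6 M in injured C57 ganglia (M, 1e6 reads), the lowest being C57 replicate 3. Libraries of a strain correlated at 0.992 to 0.997 and libraries of different strains at 0.97 to 0.977 (Pearson's r of log2(FPKM + 1) across genes, which are not independent replicates). The strains separated along the first principal component (74.3% of the variance). C57 replicate 3 stood apart on the second component (8.7%), at −17.59 against −8.12 to 7.28 in the other 7 libraries. Levels of marker genes were summed over lists. Neuronal structure genes summed to 1185 to 1291 FPKM in CAST and 1198 to 1428 FPKM in C57. Satellite glia markers summed to 216 to 233 FPKM in CAST and 218 to 246 FPKM in C57. No member of either list was at 0 throughout a group. The same held in the injured groups for markers of other tissues such as skeletal muscle, so it cannot test the tissue label.

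Of the 27045 genes, 13185 were called (48.8%), 7822 higher in injured CAST (28.9%) and 5363 lower (19.8%). Of the calls 59.3% were therefore higher in CAST. With upper-quartile scaling 5923 genes were higher and 7527 lower, 44% higher, and with median-of-ratios scaling the counts were 6673 and 6509, or 50.6% higher. The shifts of these scalings between injured CAST and injured C57 were 0.10 and 0.06 on the log2 scale. The balance of higher and lower calls thus turned with the scaling, and a small difference of a single gene reads relative to these shifts. A change of at least 2-fold on the log2(FPKM + 1) scale was reached by 443 called genes (1.64%), 294 of them higher (1.09%) and 149 lower (0.551%). The libraries of the strains did not overlap in 11849 genes (43.8%). CAST was above C57 in every library for 6925 of them (25.6%) and below it for 4924 (18.2%). Without C57 replicate 3, 12466 genes were called.

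Most strain differences of the injured ganglion were also present in the naive one, whose libraries enter the injured comparison only through the shared estimate of the spread. Naive CAST and naive C57 ganglia differed in 11891 genes (44%). Of the 7822 genes higher in injured CAST, 4828 (61.7%) were higher in naive CAST as well, 140 were lower there and 2854 (36.5%) were not called there. Of the 5363 lower genes, 3814 (71.1%) were lower in naive CAST, 75 were higher and 1474 (27.5%) were not called. Of the 294 genes at least 2-fold higher in injured CAST, 261 (88.8%) were called higher in naive CAST. The difference between the injured and the naive strain difference, tested as an interaction, was called for 3549 genes (13.1%). It was positive, more CAST over C57 after injury, for 2161 (7.99%) and negative for 1388 (5.13%).

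**Figure D1:**
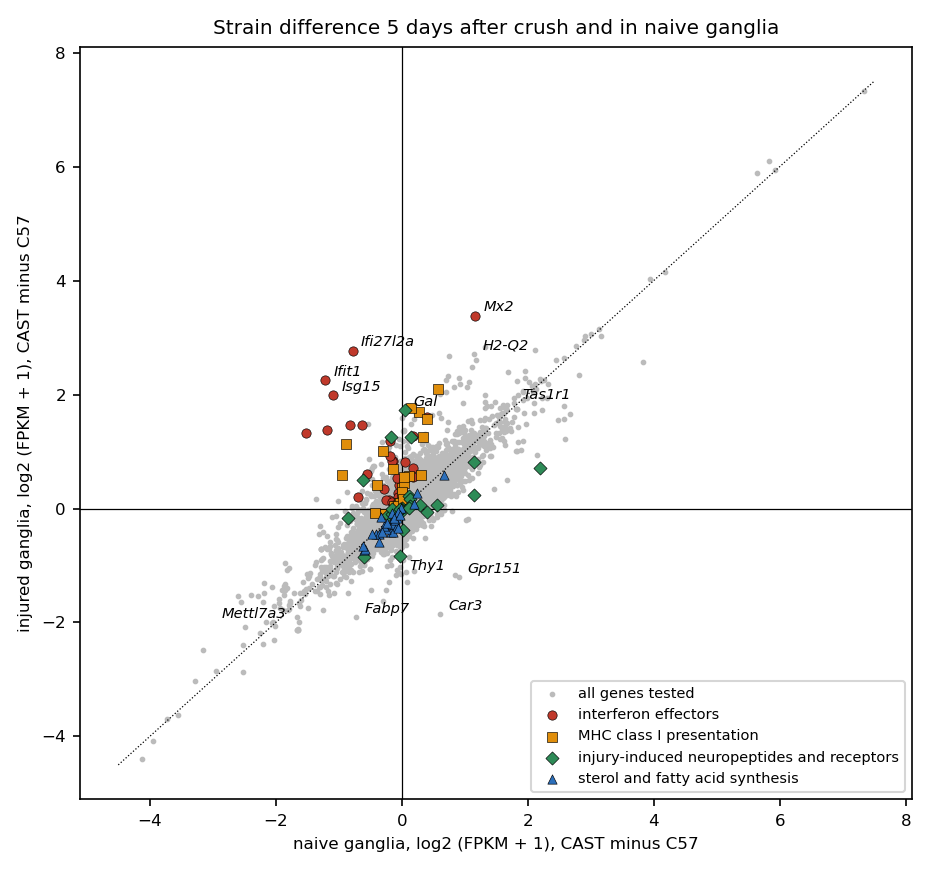
Strain difference of each gene (CAST minus C57, log2(FPKM + 1)) in naive ganglia on the x axis and in injured ganglia on the y axis; grey points are all 27045 genes tested, coloured symbols are 4 gene lists, and the dotted line marks equal differences. Tas1r1 and Mettl7a3 lie near the line, the interferon genes Ifi27l2a, Ifit1 and Isg15 lie above 0 in injured and below 0 in naive ganglia, and Gpr151 and Car3 lie on the opposite side.

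**Figure D2:**
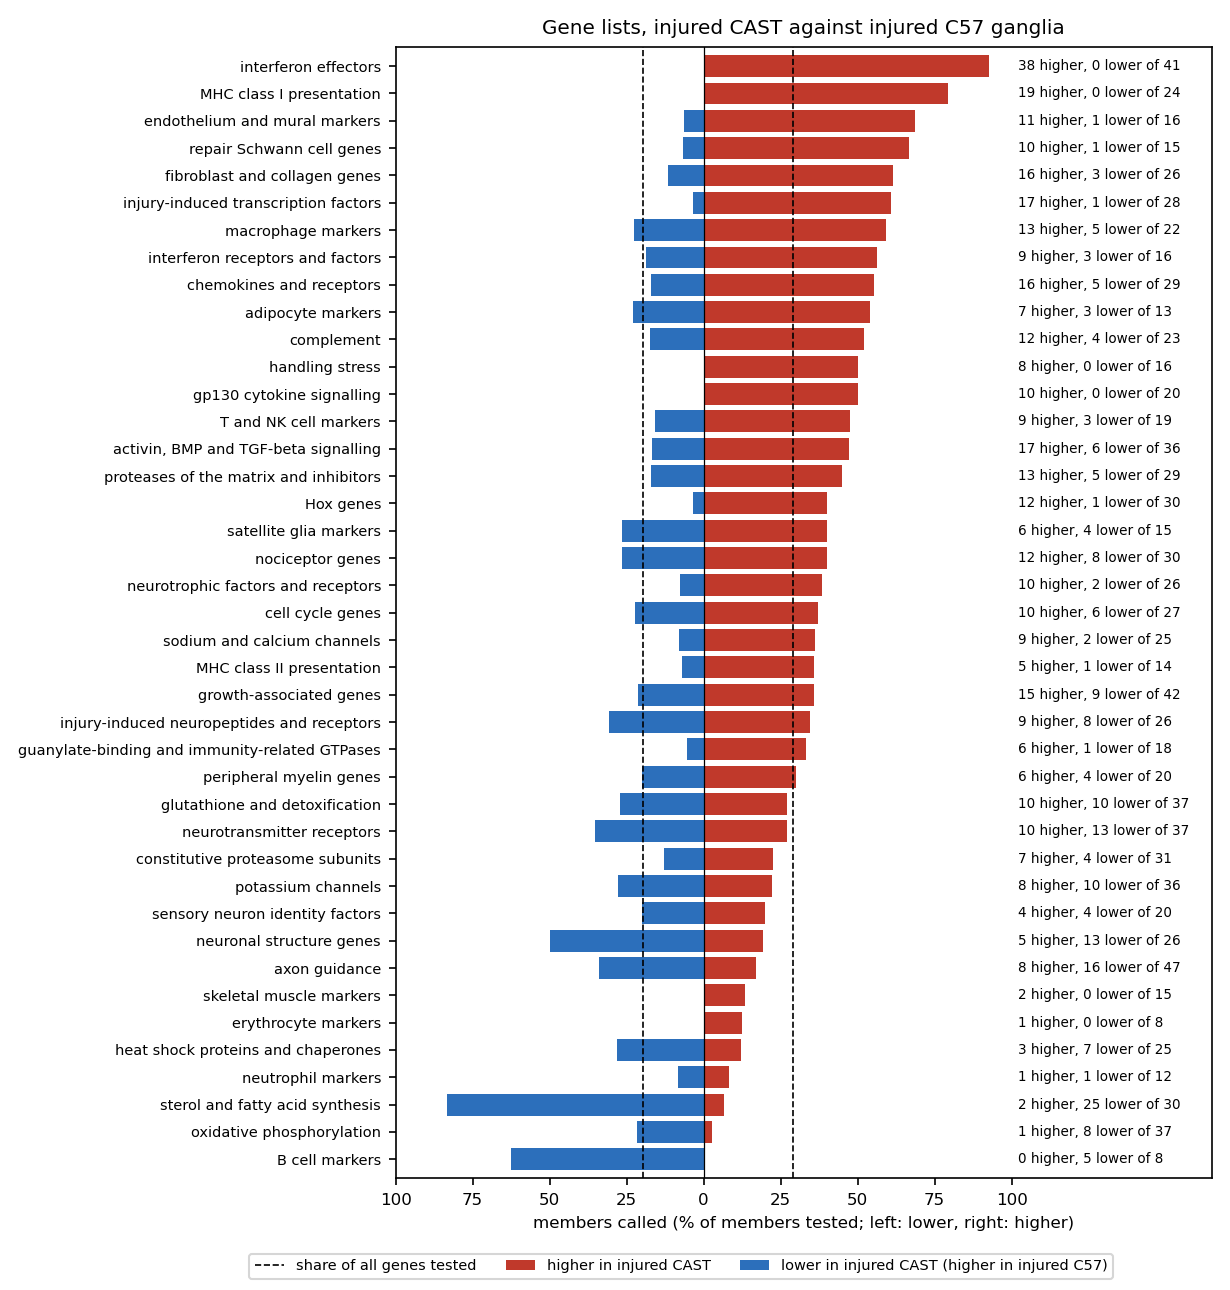
Share of the tested members of each gene list called higher (right, red) or lower (left, blue) in injured CAST than in injured C57 ganglia; dashed lines mark the shares of all genes tested, 28.9% higher and 19.8% lower. Interferon effectors, with 38 of 41 members higher, and MHC class I, with 19 of 24 higher, stand at one end, and sterol synthesis, with 25 of 30 members lower, at the other.

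Genes that interferon induces were higher in injured CAST than in injured C57 ganglia across nearly the whole list. Of 41 interferon effectors 38 were called higher and 0 lower, where 28.9% of all genes tested were higher and 19.8% lower. The median log2 difference of the list was 0.41, against 0.01 over all genes tested. In naive ganglia the same list went the other way more often, with 4 members higher and 15 lower in CAST (24.1% and 19.9% of all genes). The interaction was called positive for 38 of the 41 and negative for 0 (7.99% and 5.13% of all genes), with a median of 0.52. Counts of the lists that follow read against these shares of all genes in injured ganglia, naive ganglia and the interaction.

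The promoters of the effectors Ifit1, Isg15 and Bst2 and of the class I light chain gene B2m are shown because each was higher in injured and lower in naive CAST, from 250 bases before the RefSeq start to that start (GRCm38.p6, 5′ to 3′ on the gene's strand, sequence from RefSeq). Capitals mark matches to GAAA, any 2 bases and GAAA again on either strand, the core letters of the interferon-stimulated response element; neighbouring matches overlap in Isg15 and Bst2. In a window from 250 bases before the start to 50 after it (300 bases), 13 of the 28 interferon effectors with a RefSeq promoter held a match (46.4%), as did 9 of 10 guanylate-binding and immunity-related GTPases (90%) and 5 of 20 MHC class I genes (25%), against 1079 of all 27025 promoters (3.99%). A match describes these letters in the reference genome of C57 and says nothing of the CAST sequence or of binding. Ifit1 lies at chr19:34640639-34640888 on the plus strand, Isg15 at chr4:156200819-156201068 on the minus strand, Bst2 at chr8:71537473-71537722 on the minus strand and B2m at chr2:122147437-122147686 on the plus strand.
Ifit1: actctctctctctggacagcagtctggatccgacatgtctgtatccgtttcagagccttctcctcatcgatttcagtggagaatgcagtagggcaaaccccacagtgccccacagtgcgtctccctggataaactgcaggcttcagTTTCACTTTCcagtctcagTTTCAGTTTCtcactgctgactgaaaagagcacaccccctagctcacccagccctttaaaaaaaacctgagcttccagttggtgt
Isg15: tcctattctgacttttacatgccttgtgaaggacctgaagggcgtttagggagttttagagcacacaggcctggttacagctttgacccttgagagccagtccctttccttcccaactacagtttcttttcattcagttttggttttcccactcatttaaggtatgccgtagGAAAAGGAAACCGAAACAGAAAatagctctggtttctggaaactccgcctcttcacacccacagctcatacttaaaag
Bst2: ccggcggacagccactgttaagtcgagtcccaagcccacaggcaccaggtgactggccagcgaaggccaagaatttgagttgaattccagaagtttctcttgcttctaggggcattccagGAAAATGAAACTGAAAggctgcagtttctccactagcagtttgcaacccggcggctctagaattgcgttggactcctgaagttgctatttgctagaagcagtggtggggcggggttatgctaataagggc
B2m: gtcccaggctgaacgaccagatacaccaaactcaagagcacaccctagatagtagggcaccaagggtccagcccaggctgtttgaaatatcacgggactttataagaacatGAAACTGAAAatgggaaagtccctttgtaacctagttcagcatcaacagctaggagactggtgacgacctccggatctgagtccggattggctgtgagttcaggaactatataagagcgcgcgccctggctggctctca

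Among the antiviral effectors, Ifi27l2a, an interferon-inducible membrane protein gene on the minus strand of chromosome 12 (103442167 to 103443680, mm10), had 28, 20.4, 18.5 and 21.3 FPKM in injured CAST, against 2.43, 2.55, 2.29 and 2.09 FPKM in injured C57. The groups were far apart, and the level in injured DBA averaged 2.63 FPKM. The fold was 9.41 and the log2 difference 2.77 (SE 0.160, adjusted p = 1.57e-11). In naive ganglia the order was the opposite, with 1.4 ± 0.248 FPKM in CAST and 3.17 ± 0.786 FPKM in C57. Ifit1, which binds viral RNA, had 16.1, 19, 7.37 and 7.93 FPKM in injured CAST, against 1.18, 1.68, 1.76 and 2.02 FPKM in injured C57 (7.58-fold, log2 difference 2.26, SE 0.216, adjusted p = 3.15e-08). All CAST libraries were above all C57 libraries, with replicates 1 and 2 of CAST well above replicates 3 and 4. In naive ganglia Ifit1 was 7.12-fold lower in CAST. Isg15, a ubiquitin-like modifier, had 15, 19, 7.4 and 11.5 FPKM in injured CAST, against 1.74, 2.15, 2.52 and 3.35 FPKM in injured C57 (5.41-fold), with CAST replicate 3 the lowest of its group and no overlap. Its naive values were 4.17-fold lower in CAST, and a near-identical annotated copy, AC151275.1, was not analysed here.

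Bst2, a protein that tethers budding virus, had 12.7, 11.8, 7.57 and 7.11 FPKM in injured CAST, against 2.72, 3.1, 2.34 and 3.16 FPKM in injured C57. Rtp4, a chaperone of receptors that interferon induces, averaged 4.65 ± 1.6 FPKM in CAST and 0.996 ± 0.25 FPKM in C57, and its libraries did not overlap either. Ifit3, a partner of Ifit1, overlapped between the strains, since CAST replicate 3 (4.21 FPKM) lay below C57 replicate 4 (4.43 FPKM). It was called nevertheless (log2 difference 1.33, SE 0.268, adjusted p = 0.000327). Together with its near-identical copy Ifit3b it had 87.1 ± 45.5 CPM in CAST and 25.1 ± 9.32 CPM in C57.

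In Ifit1 and Isg15 the injured CAST libraries ran from replicate 2, the highest, through 1 and 4 to 3, and the fat cell genes Fabp4 and Cfd had that order too, while Ifi27l2a and Bst2 did not. Fabp4, a fatty acid carrier of fat cells and macrophages, had 1.97, 2.15, 0.532 and 0.868 FPKM in injured CAST, against 0.134, 0.193, 0.267 and 0.225 FPKM in injured C57, and Cfd, or adipsin, had 4.8, 6.9, 1.72 and 2.1 FPKM in CAST, against 0.17, 0.414, 0.744 and 0.975 FPKM in C57. Over the adipocyte list 7 of 13 genes were higher and 3 lower. The summed level of the list was 62.8 to 71.7 FPKM in CAST and 70.2 to 75.7 FPKM in C57. Its member Scd1, at 775 ± 24 CPM in injured CAST and 894 ± 28.3 CPM in injured C57, weighs heavily in that sum. The sum is therefore not a measure of the amount of fat. In naive ganglia Fabp4 was 4.63-fold higher in CAST, where Ifit1 and Isg15 were lower. The part of fat tissue in the interferon difference was not tested.

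Mx1 and Mx2 are antiviral dynamin-like GTPases. Mx2, on the plus strand of chromosome 16 (97535308 to 97560900), is annotated as a polymorphic pseudogene, as laboratory strains carry a disrupted copy. It had 16.1, 14.7, 9.87 and 9.7 FPKM in injured CAST, against 0.228, 0.235, 0.285 and 0.339 FPKM in injured C57 (46.3-fold, log2 difference 3.39, SE 0.102, adjusted p = 7.18e-16). Unlike Ifit1 it was higher in naive CAST too, by 9.76-fold, and injured DBA averaged 0.321 FPKM. Mx1 averaged 0.852 ± 0.32 FPKM in injured CAST and 0.036 ± 0.0244 FPKM in injured C57. In naive ganglia it averaged 0.0497 ± 0.00732 FPKM in CAST and 0.0142 ± 0.0048 FPKM in C57, 3.5-fold higher without overlap. It was not called there (limma adjusted p = 0.608), on a scale that shrinks such low levels. Oas1b, another polymorphic pseudogene of the annotation and a member of the oligoadenylate synthetases, was 9.18-fold higher in injured CAST and 2.5-fold higher in naive CAST. The 3 effectors that were not called were Ifi44l, Trim25 and Samhd1, of which Trim25 was called higher when CAST replicate 3 or 4 was left out. Samhd1, which depletes nucleotides, had the same mean of 0.187 FPKM in both strains (log2 difference −0.00, SE 0.018).

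Of 16 interferon receptors and factors, 9 were higher in injured CAST and 3 lower, the lower ones being Ifnar1, Ifngr2 and the factor Irf3 (1.17-fold, adjusted p = 0.0107). Irf7, a factor that amplifies the type I response, had 2.23, 2.09, 0.935 and 1.16 FPKM in injured CAST, against 0.241, 0.244, 0.258 and 0.306 FPKM in injured C57 (6.12-fold, log2 difference 1.01, SE 0.108, adjusted p = 1.47e-07). Stat2 was 1.75-fold and Irf9 1.63-fold higher in injured CAST, each without overlap of the libraries. In naive ganglia Irf9 was 1.42-fold lower in CAST, while Stat2 was not called. Ifnar1, a chain of the type I receptor, averaged 0.563 ± 0.0483 FPKM in CAST and 0.682 ± 0.0309 FPKM in C57 (log2 difference −0.11, adjusted p = 0.00118). Ifngr2, a chain of the type II receptor, was 1.18-fold lower in injured CAST and 1.21-fold lower in naive CAST.

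Of 18 guanylate-binding and immunity-related GTPases, which attack vacuoles of parasites, 6 were higher and 1 lower. Over all genes tested 28.9% were higher and 19.8% lower, so the higher count is near the share of all genes. Without C57 replicate 4 the counts were 10 and 0. Gbp3 averaged 0.896 ± 0.261 FPKM in injured CAST and 0.233 ± 0.0888 FPKM in injured C57. Gbp2 overlapped, with 1.91, 2.32, 1.32 and 1.24 FPKM in CAST, against 0.368, 0.385, 0.819 and 1.74 FPKM in C57. Its adjusted p was 0.0376 and was lost with upper-quartile scaling, without a filter, with only the groups of the contrast and when CAST replicate 1 or 2 or C57 replicate 1, 2 or 3 was left out. Iigp1 was the member that went the other way. It had 0.00351, 0.00288, 0.00158 and 0.00104 FPKM in injured CAST, a few reads per library, against 0.121, 0.105, 0.239 and 0.472 FPKM in injured C57. The call was lost without C57 replicate 4 (adjusted p = 0.0679), while limma on the log2(CPM + 0.5) scale gave an adjusted p of 7.69e-06. In naive ganglia Iigp1 averaged 0.000983 ± 0.000457 FPKM in CAST and 0.127 ± 0.018 FPKM in C57. That was 129-fold lower in CAST, though not called on the log2(FPKM + 1) scale.

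**Figure D3:**
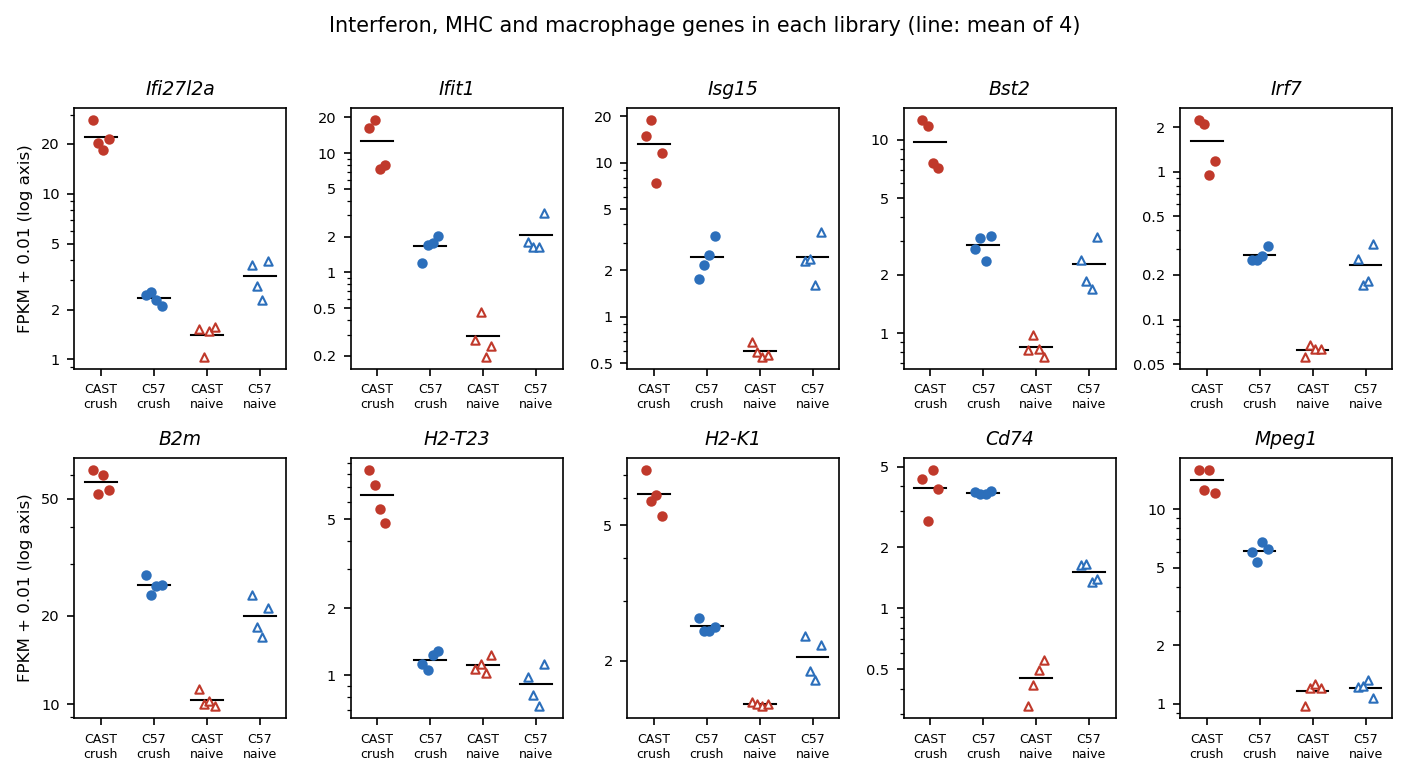
FPKM plus 0.01 on a log axis in each library of injured (circles) and naive (triangles) CAST (red) and C57 (blue) ganglia, with the mean of 4 libraries as a line. In Ifi27l2a, Ifit1, Isg15, Bst2, Irf7 and B2m the injured CAST libraries lie above all injured C57 libraries and the naive CAST libraries lie below the naive C57 libraries, while the invariant chain gene Cd74 reached like levels in both injured groups.

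Most MHC class I genes were higher in injured CAST. Of 24 genes of class I presentation, 19 were higher in injured CAST and 0 lower, with a median log2 difference of 0.50. With upper-quartile scaling 18 were higher and 1 lower. In naive ganglia 4 were higher and 7 lower in CAST (24.1% and 19.9% of all genes). The interaction was positive for 20 (7.99% of all genes). B2m, the light chain shared by all class I molecules, had 62.8, 51.7, 60.2 and 53.7 FPKM in injured CAST, against 27.4, 23.4, 25.3 and 25.4 FPKM in injured C57. The groups were separate, and the log2 difference was 1.14 (SE 0.115, adjusted p = 6.71e-08). Naive values were 10.3 ± 0.637 FPKM in CAST and 20 ± 2.91 FPKM in C57, a 1.94-fold difference in the other direction.

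Classical heavy chains were higher too. H2-K1 had 7.27, 5.89, 6.12 and 5.31 FPKM in injured CAST, against 2.67, 2.44, 2.44 and 2.51 FPKM in injured C57 (2.44-fold). H2-D1 had 46.3, 39.4, 39 and 33.3 FPKM in CAST, against 28.1, 25.8, 24.5 and 25.1 FPKM in C57 (1.53-fold). In naive ganglia H2-K1 was 1.38-fold and H2-D1 2.03-fold lower in CAST. H2 genes differ between strains in sequence and belong to a multigene family, so reads can be split among relatives in a strain-dependent way, and their values are uncertain for that reason.

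Non-classical class I genes varied among themselves, from H2-T24, which was not called, and H2-T22, 1.67-fold higher, to H2-Q2, 17-fold higher. H2-T23, which encodes the Qa-1 molecule read by natural killer cells, had 8.36, 7.09, 5.54 and 4.82 FPKM in injured CAST, against 1.11, 1.05, 1.22 and 1.28 FPKM in injured C57 (5.54-fold), and was not called in naive ganglia. With its copy H2-T-ps it had 37 ± 8.57 CPM in CAST and 5.94 ± 0.577 CPM in C57. H2-Q4 was 6.04-fold higher in injured and 1.92-fold higher in naive CAST, and H2-Q2 was 4.95-fold higher in naive CAST. The peptide transporter gene Tap1 averaged 0.587 ± 0.163 FPKM in CAST and 0.229 ± 0.0859 FPKM in C57. The immunoproteasome subunit gene Psmb8 averaged 2 ± 0.248 FPKM in CAST and 0.844 ± 0.165 FPKM in C57. Neither was called in naive ganglia. The members not called were H2-T24, Tapbpl, Psme1, Nlrc5 and Pdia3.

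MHC class II genes had no common direction after injury. Of 14 genes of class II presentation, 5 were higher and 1 lower in injured CAST (28.9% and 19.8% of all genes tested). In naive CAST 2 were higher and 7 lower (24.1% and 19.9% of all genes). The interaction was positive for 9 (7.99% of all genes). Cd74, the invariant chain, had 4.31, 2.68, 4.82 and 3.88 FPKM in injured CAST, against 3.73, 3.63, 3.64 and 3.79 FPKM in injured C57, with C57 values inside the CAST range (log2 difference 0.05, SE 0.099). In naive ganglia it had 0.44 ± 0.0992 FPKM in CAST and 1.5 ± 0.16 FPKM in C57. H2-Ab1 was likewise not called after injury (3.64 ± 0.85 FPKM in CAST and 3.7 ± 0.0979 FPKM in C57) and 4.17-fold lower in naive CAST. Ciita, the master activator of class II genes, was 1.84-fold lower in injured CAST. H2-Ea-ps, a polymorphic pseudogene of the annotation that is disrupted in C57 mice, had 5.71, 3.8, 8.06 and 5.22 FPKM in injured CAST, against 0.017, 0.0073, 0.0265 and 0.0184 FPKM in injured C57, and DBA averaged 6.44 FPKM.

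Markers of macrophages were higher in injured CAST in most cases. Of 22 markers 13 were higher and 5 lower, against 1 and 1 in naive ganglia. Their summed level was 43 to 62.4 FPKM in injured CAST and 33.2 to 38.6 FPKM in injured C57, without overlap, whereas naive sums were 8.21 to 10.6 FPKM in CAST and 8.49 to 11.8 FPKM in C57. Genes with a high FPKM weigh most in this sum and in those of the other lists. Mpeg1 averaged 14.2 FPKM in injured CAST and 6.09 FPKM in injured C57, while Mrc1, a lower marker, averaged 0.204 and 0.357 FPKM. The sums are therefore not a measure of the number of cells. The part of macrophages in the interferon and MHC differences was not tested. Mpeg1, a pore-forming protein of macrophages, had 16, 12.5, 16 and 12.1 FPKM in injured CAST, against 6.01, 5.34, 6.79 and 6.23 FPKM in injured C57 (2.33-fold, log2 difference 1.09, SE 0.120, adjusted p = 2.24e-07). Its naive levels, 1.15 ± 0.131 FPKM in CAST and 1.2 ± 0.107 FPKM in C57, were not called different. The endotoxin co-receptor gene Cd14 was 2.6-fold higher in injured CAST.

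The 5 lower markers were Mrc1, Cd163, Folr2, Fcgr2b and Ms4a7. The first 3 encode scavenger and uptake receptors of resident macrophages. Mrc1 had 0.187, 0.16, 0.254 and 0.214 FPKM in injured CAST, against 0.373, 0.331, 0.389 and 0.334 FPKM in injured C57 (1.75-fold lower in CAST, adjusted p = 2.51e-06). Cd163 was 2.1-fold and Folr2 1.9-fold lower in injured CAST. None of these 3 was called in naive ganglia, and their interaction was negative.

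Of 23 complement genes 12 were higher and 4 lower (28.9% and 19.8% of all genes tested). C1qa, a chain of the starter molecule of the classical pathway, was 1.57-fold higher in injured CAST and 1.4-fold lower in naive CAST. The component gene C4b was 1.71-fold higher (9.58 ± 2.14 FPKM in CAST and 5.6 ± 0.237 FPKM in C57). Summed with its copy C4a it had 160 ± 35.6 CPM in CAST and 90.7 ± 3.91 CPM in C57. Cd59a, which blocks the membrane attack complex, was 3.37-fold lower in injured CAST and 3.09-fold lower in naive CAST.

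Chemokine genes were mostly higher, 16 of 29 with 5 lower. Cxcl13, which draws B cells, had 0.457, 0.25, 0.39 and 0.759 FPKM in injured CAST, against 0.0428, 0.00775, 0.0188 and 0.00867 FPKM in injured C57 (23.8-fold), and it was near 0 in both naive strains. Ccl5, a T cell attractant, was 4.83-fold higher. Cxcl10, an interferon-induced attractant, overlapped between strains (2.63 ± 1.56 FPKM in CAST and 1.09 ± 0.799 FPKM in C57), and its call was lost with only the groups of the contrast (adjusted p = 0.124), without CAST replicate 2 (adjusted p = 0.0691) and without C57 replicate 1 (adjusted p = 0.0577). Ccl8, a monocyte attractant, went the other way. It had 0.811, 0.685, 0.848 and 0.787 FPKM in injured CAST, against 2.99, 2.65, 3.13 and 2.72 FPKM in injured C57 (3.67-fold lower in CAST, log2 difference −1.12, SE 0.074, adjusted p = 1.35e-10).

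Ackr1, a decoy receptor for chemokines, was 1.78-fold lower in injured CAST, and it overlaps Cadm3 on the same strand, so their reads cannot be told apart. T and NK cell markers were higher for 9 of 19 and lower for 3 (28.9% and 19.8% of all genes tested). B cell markers were higher for 0 of 8 and lower for 5, with 3 lower when CAST replicate 3 or 4 or C57 replicate 4 was left out, and their sum was 2.61 to 4.59 FPKM in CAST and 6.07 to 12.5 FPKM in C57. Ighm, the IgM heavy chain, was 2.59-fold lower in injured CAST and 8.11-fold lower in naive CAST.

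Transcription factors of injured neurons were more often higher in CAST, 17 of 28 with 1 lower (12 and 3 with upper-quartile scaling). Atf3, named here after its values were seen because it is the common mark of an injured neuron, had 17.5, 16.7, 20.3 and 17.4 FPKM in injured CAST, against 20.8, 17.5, 18 and 16.1 FPKM in injured C57. Its libraries overlapped and the log2 difference was −0.01 (SE 0.066, adjusted p = 0.91). Sox11, a factor of growing neurons, had 21.3, 23.5, 29.3 and 19.9 FPKM in injured CAST, against 16.7, 12, 12.6 and 13.7 FPKM in injured C57 (1.71-fold), and was 1.87-fold higher in naive CAST. Junb, a partner of Fos, averaged 17.3 ± 2.79 FPKM in CAST and 10.2 ± 0.733 FPKM in C57, and was not called in naive ganglia. Atf4 was the factor called lower (1.12-fold), a call that was lost when CAST replicate 1 or 2 or C57 replicate 1 or 3 was left out. Genes that handling of tissue induces, a list that shares Junb with this one, were higher for 8 of 16 and lower for 0, and their part was not tested. Egr1, an immediate-early gene, was 2.04-fold higher in injured CAST and 1.48-fold higher in naive CAST.

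Growth-associated genes had no common direction, since 15 of 42 were higher and 9 lower, and 8 were higher and 14 lower with upper-quartile scaling. Gap43, a protein of growth cones, had 5.66 ± 0.496 FPKM in CAST and 5.24 ± 0.21 FPKM in C57 and was not called, except without CAST replicate 2. The libraries of Sprr1a, which promotes neurite growth, overlapped at 408 ± 45.3 FPKM in CAST and 461 ± 35.9 FPKM in C57. Lgals1, the lectin galectin-1, had 88.8, 90.2, 90 and 101 FPKM in injured CAST, against 54.7, 53.7, 42.3 and 48.3 FPKM in injured C57 (1.86-fold), and was 1.92-fold higher in naive CAST. Anxa1, a phospholipid-binding protein, was 2.8-fold higher in injured CAST and not called in naive ganglia.

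Thy1, a surface glycoprotein of neurons on chromosome 9 (44043384 to 44048579, plus strand), was the neuronal structure gene that fell furthest. It had 69.3, 65, 61.6 and 71.9 FPKM in injured CAST, against 157, 159, 137 and 148 FPKM in injured C57 (log2 difference −1.15, SE 0.065, adjusted p = 1.02e-11). In naive ganglia it had 113 ± 2.57 FPKM in CAST and 114 ± 9.34 FPKM in C57 and was not called, and the interaction was −1.14 (adjusted p = 2.59e-08). Injured DBA averaged 158 FPKM. Gpr151, an orphan receptor of sensory and habenular neurons, had 26, 27.7, 28 and 22.4 FPKM in injured CAST, against 68.4, 58.3, 63.2 and 54.6 FPKM in injured C57, a log2 difference of −1.20 (adjusted p = 4.18e-09). In naive ganglia it was 3.04-fold higher in CAST. Tuba1a, an alpha-tubulin of growing neurons, was 1.83-fold lower in both states. With its near-identical copies, however, it summed to 17500 ± 592 CPM in injured CAST and 15600 ± 1260 CPM in injured C57. Its own difference therefore depends on how reads were split among the copies. Of 26 neuronal structure genes, 5 were higher and 13 lower.

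Signals of the activin branch differed. Inhba, the subunit of activin A, had 0.134, 0.12, 0.121 and 0.142 FPKM in injured CAST, against 0.00763, 0.0123, 0.00762 and 0.0134 FPKM in injured C57 (12.6-fold). In naive ganglia it had 0.00981 ± 0.00435 FPKM in CAST and 0.00978 ± 0.00294 FPKM in C57 and was not called, and injured DBA averaged 0.0184 FPKM. Inhbb, the subunit of activin B, was 1.46-fold higher with overlapping libraries. The inhibin subunit gene Inha was 1.99-fold lower, and Fst, which traps activin, was 1.34-fold lower. Over the list of activin, BMP and TGF-beta signalling, 17 of 36 genes were higher and 6 lower (28.9% and 19.8% of all genes). Of 20 genes of gp130 cytokine signalling 10 were higher and 0 lower. Il6st, which encodes gp130, averaged 16.7 ± 1.22 FPKM in CAST and 10.5 ± 0.478 FPKM in C57.

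In the list of 26 neuropeptides and receptors 9 were higher and 8 lower in injured CAST (28.9% and 19.8% of all genes tested). Gal, which encodes galanin (chromosome 19, 3409915 to 3414544, minus strand), had 266, 298, 327 and 252 FPKM in injured CAST, against 96.6, 87.1, 83.7 and 74.4 FPKM in injured C57 (3.34-fold, log2 difference 1.73, SE 0.148, adjusted p = 6.02e-09). Naive levels were 2.34 ± 1.15 FPKM in CAST and 2.11 ± 0.213 FPKM in C57 and not called, and injured DBA averaged 340 FPKM. Npy, neuropeptide Y, had 33, 35.1, 40.6 and 36.2 FPKM in injured CAST, against 14.6, 15, 14.5 and 14.2 FPKM in injured C57 (2.49-fold). Naive Npy levels were low, 0.16 ± 0.115 FPKM in CAST and 0.0427 ± 0.0121 FPKM in C57, and called higher in CAST (3.74-fold). Cartpt, the precursor of CART peptides, had 7.41, 8.61, 8.47 and 6.82 FPKM in injured CAST, against 2.45, 2.79, 3.08 and 2.4 FPKM in injured C57 (2.92-fold). The groups of all 3 genes were separate. Naive levels of Cartpt, 3.93 ± 0.178 FPKM in CAST and 4.65 ± 1.43 FPKM in C57, were not called different. Adcyap1, the precursor of PACAP, was 1.43-fold higher in injured CAST and 1.61-fold lower in naive CAST.

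Other peptides were lower, or were higher in both states. Tac1, the substance P precursor, had 6.69, 7.1, 6.19 and 6.5 FPKM in injured CAST, against 11, 13.7, 14.1 and 12.3 FPKM in injured C57 (1.93-fold lower), and was 1.54-fold lower in naive CAST. Crh, the stress peptide corticoliberin, averaged 2.38 ± 0.368 FPKM in CAST and 5.04 ± 0.766 FPKM in C57. In naive ganglia it had 0.0275 ± 0.00725 FPKM in CAST and 0.043 ± 0.0138 FPKM in C57 and was not called. Of the cholecystokinin receptors, Cckar was 3.38-fold and Cckbr 1.9-fold lower. Sst, somatostatin, was 2.02-fold higher in injured CAST and 5.53-fold higher in naive CAST.

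**Figure D4:**
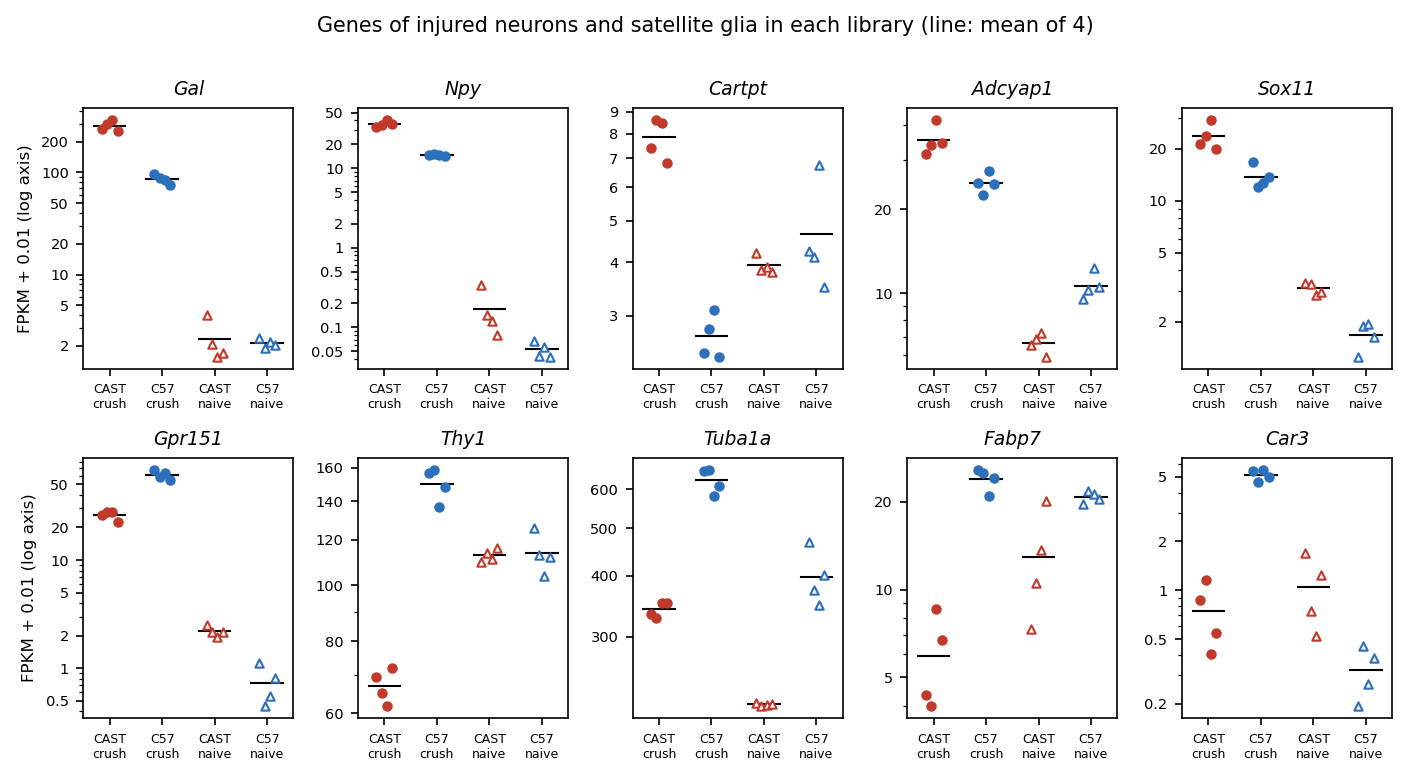
FPKM plus 0.01 on a log axis in each library of injured (circles) and naive (triangles) CAST (red) and C57 (blue) ganglia, with the mean of 4 libraries as a line. Gal, Npy and Cartpt are higher in all injured CAST libraries, Gpr151 and Thy1 are lower, Tuba1a differs alike in both states, and Fabp7 and Car3 are low in injured CAST.

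Among receptors and channels of nociceptors, 12 of 30 were higher and 8 lower, and 9 and 12 with upper-quartile scaling, so that the list had no set direction. The sodium channel gene Scn10a did not differ in a detectable way (5.35 ± 1.19 FPKM in CAST and 5.3 ± 0.769 FPKM in C57, adjusted p = 0.995). Trpa1, an irritant channel, averaged 1.14 ± 0.0792 FPKM in CAST and 0.584 ± 0.081 FPKM in C57. Trpv1, the heat and capsaicin channel, averaged 1.01 ± 0.12 FPKM in CAST and 1.58 ± 0.035 FPKM in C57. Both had the same order in naive ganglia. Mrgprb4, a receptor of touch-sensitive skin afferents, had 26.4, 19.6, 16.3 and 26.2 FPKM in injured CAST, against 4.11, 6.14, 5.98 and 6.05 FPKM in injured C57 (3.97-fold) and was 6.5-fold higher in naive CAST. The serotonin channel gene Htr3a had 1.07, 1.25, 0.703 and 1.01 FPKM in injured CAST, against 4.24, 4.89, 4.8 and 4.46 FPKM in injured C57 (4.56-fold lower). The nicotinic subunit gene Chrna3 was 3.35-fold higher and the serotonin receptor gene Htr1d 3.86-fold higher. Mrgpra2a and its near-identical copy Mrgpra2b summed to 6.76 ± 1.19 CPM in CAST and 72.4 ± 9.68 CPM in C57. Gfra3, the artemin receptor, averaged 7.23 ± 0.175 FPKM in CAST and 3.51 ± 0.171 FPKM in C57, and Gfra2, the neurturin receptor, was 1.88-fold lower in CAST.

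Satellite glia markers were higher for 6 of 15 and lower for 4 (4 and 5 with upper-quartile scaling). Fabp7, a fatty acid carrier of satellite glia (chromosome 10, 57784881 to 57788450, plus strand), had 4.34, 3.96, 8.58 and 6.7 FPKM in injured CAST, against 25.8, 25.2, 20.9 and 24.2 FPKM in injured C57 (4.08-fold lower, log2 difference −1.91, SE 0.216, adjusted p = 3.23e-07). Its naive CAST libraries ranged widely, from 7.32 to 20.1 FPKM, against 19.7 to 21.7 FPKM in naive C57. Gfap, the filament of reactive glia, had 1.57, 1.5, 1.87 and 1.83 FPKM in injured CAST, against 0.212, 0.164, 0.202 and 0.148 FPKM in injured C57 (9.33-fold) and was not called in naive ganglia. Injured DBA averaged 2.39 FPKM. Glul, glutamine synthetase, was 1.63-fold lower. Repair Schwann cell genes were higher for 10 of 15 and lower for 1. Of 20 myelin genes 6 were higher and 4 lower, near the shares of all genes (28.9% and 19.8%).

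Fibroblast and collagen genes were higher for 16 of 26 and lower for 3, against 3 and 3 in naive ganglia. The sum of their levels was 70.6 to 76.7 FPKM in injured CAST and 52 to 62.8 FPKM in injured C57, and the naive ranges, 30.6 to 42.1 FPKM in CAST and 30 to 46.7 FPKM in C57, overlapped. Col1a1 averaged 12.8 ± 1.11 FPKM in CAST and 7.35 ± 0.698 FPKM in C57. Col5a2, a chain of thin collagen fibrils, had 1.48, 1.54, 1.37 and 1.37 FPKM in injured CAST, against 0.22, 0.204, 0.237 and 0.205 FPKM in injured C57 (6.65-fold), and was 4.18-fold higher in naive CAST. The gelatinase gene Mmp2 was 2.46-fold higher and the inhibitor gene Timp2 1.38-fold lower. Endothelial and mural markers were higher for 11 of 16 and lower for 1, summing to 16.3 to 17.8 FPKM in CAST and 12.3 to 16.3 FPKM in C57.

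Genes of sterol and fatty acid synthesis were lower in injured CAST almost throughout, 25 of 30 with 2 higher, at a median log2 difference of −0.27. In naive CAST 21 were lower and 3 higher, and the interaction was called for 3 members. Scd2, a desaturase of lipid synthesis named after its values were seen, had 98.7, 97.5, 111 and 103 FPKM in injured CAST, against 150, 149, 159 and 161 FPKM in injured C57 (1.51-fold lower, log2 difference −0.59, SE 0.050, adjusted p = 5.43e-09). The phosphomevalonate kinase gene Pmvk was 2.62-fold and the sterol desaturase gene Sc5d 1.77-fold lower. Hmgcs1, the entry enzyme of the mevalonate path, averaged 34 ± 2.43 FPKM in CAST and 45.7 ± 1.16 FPKM in C57. Lss, which closes the sterol ring, was one of the 2 exceptions at 1.8 ± 0.0867 FPKM in CAST and 0.863 ± 0.0944 FPKM in C57, and the other was the desaturase gene Fads1.

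The largest single differences were of genes set apart by strain in both states. The pseudogene Gm11410, named after its values were seen, had a log2 difference of 7.34 in injured and 7.33 in naive ganglia. Tas1r1, a taste receptor gene (chromosome 4, 152027914 to 152038568, minus strand), had 4.6, 1.89, 2.41 and 2.95 FPKM in injured CAST, against 0.0751, 0.0884, 0.0495 and 0.0646 FPKM in injured C57 (42.7-fold), and was 31.3-fold higher in naive CAST. Tspan10, a tetraspanin, was 88.1-fold higher in injured CAST and 129-fold higher in naive CAST. Ly6a, a surface antigen that differs between strains, was 4.43-fold higher in injured and 2.83-fold higher in naive CAST. Rsph1, a protein of motile cilia, had 2.93 ± 0.247 FPKM in CAST and 0.169 ± 0.0062 FPKM in C57. Sult3a1, a sulfotransferase, had 0.351, 0.339, 0.352 and 0.333 FPKM in injured CAST, against 0.0018, 0.0031, 0.00125 and 0.00231 FPKM in injured C57, where only a few reads were counted. Hipk4, a kinase known from testis, averaged 0.281 ± 0.0328 FPKM in CAST and 3.07 ± 0.16 FPKM in C57. Other genes much lower in CAST in both states were the zinc finger gene ZFP873 (7.56-fold lower after injury), the olfactory receptor gene Olfr920 (11.3-fold), Eps8l3 (12-fold), Car8 (18.8-fold) and Spink13 (25.1-fold). The olfactory receptor gene Olfr1033 was listed at 0 in every CAST library. The transcript 2810405K02Rik had 0.00447 ± 0.00249 FPKM in injured CAST, under 3 reads in each library, and 3.21 ± 0.207 FPKM in injured C57.

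Some large differences belong to genes whose reads cannot be assigned safely. Myo3a was 7.43-fold higher in CAST, and 4 pseudogenes lie on the other strand within its span. One of them, Gm13339, averaged 1114 ± 277 FPKM in CAST and 16.9 ± 3.42 FPKM in C57, and without knowledge of strand use their reads cannot be told apart. Gm13339 also has a near-identical copy in the mitochondrial gene mt-Nd2. With that copy the sum was 1590 ± 405 CPM in CAST and 1030 ± 227 CPM in C57. Gapdh had 1.64, 1.58, 1.72 and 1.72 FPKM in injured CAST, against 7.67, 7.91, 6.32 and 7.74 FPKM in injured C57. With its many near-identical copies, however, it summed to 1060 ± 63.8 CPM in CAST and 1330 ± 170 CPM in C57. The ribosomal protein gene Rps2 was 3.69-fold lower in CAST. With its copies it had 458 ± 30.2 CPM in CAST and 436 ± 39.6 CPM in C57. For Mettl7a3, a methyltransferase-like gene at 4.44-fold lower, the sum with its copies was 193 ± 10.6 CPM in CAST and 328 ± 15 CPM in C57. For the fatty acid carrier gene Fabp5 the sum was 53.4 ± 3.16 CPM in CAST and 87.1 ± 5.8 CPM in C57. Gm13339 was named after its values were seen.

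**Figure D5:**
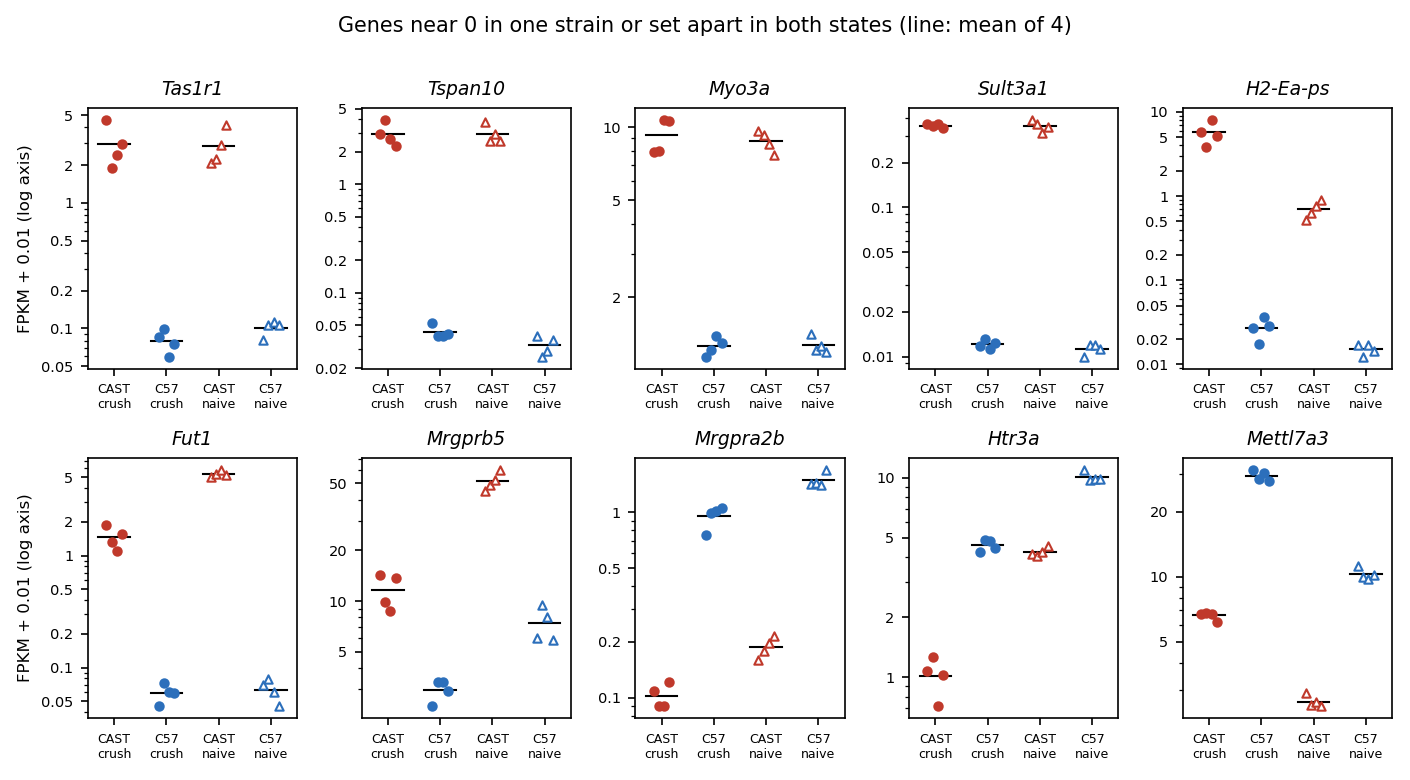
FPKM plus 0.01 on a log axis in each library of injured (circles) and naive (triangles) CAST (red) and C57 (blue) ganglia, with the mean of 4 libraries as a line. Tas1r1, Tspan10, Myo3a, Sult3a1 and H2-Ea-ps are higher in every CAST library of both states, Mrgpra2b, Htr3a and Mettl7a3 are lower, and Fut1 and Mrgprb5 are higher in CAST with a larger gap in naive ganglia.

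A further set of genes differed after injury in another way than before it on the log2(FPKM + 1) scale. Fut1, a fucosyltransferase, was 29.5-fold higher in injured CAST and 100-fold higher in naive CAST (interaction −1.37, adjusted p = 9.96e-10). Bglap, osteocalcin, was 7.4-fold higher after injury and 21.3-fold before. Klk4, a serine protease, had 1.68, 1.53, 1.46 and 1.84 FPKM in injured CAST, against 0.0201, 0, 0.0252 and 0.0116 FPKM in injured C57. Its naive levels were low, 0.0516 ± 0.0212 FPKM in CAST and 0.0217 ± 0.00718 FPKM in C57 (2.38-fold higher), and not called. Mylk4, a myosin light chain kinase family member, was 27.6-fold higher in injured CAST and not called in naive ganglia. Tmem88b, a membrane protein gene, averaged 2.55 ± 0.437 FPKM in CAST and 7.72 ± 1.04 FPKM in C57, and naive levels were not called different. Sprr2a1, a small proline-rich protein gene with near-identical neighbours, summed with them to 17.8 ± 1.3 CPM in injured CAST and 59.8 ± 5.57 CPM in injured C57. Its own level was 97.5-fold lower in injured and 74.9-fold lower in naive CAST, and both naive strains were near 0. Car3, a carbonic anhydrase, had 0.859, 1.15, 0.396 and 0.533 FPKM in injured CAST, against 5.44, 4.64, 5.54 and 5.01 FPKM in injured C57 (7.02-fold lower), but was 3.32-fold higher in naive CAST. Muscle and fat also express Car3. The sums of adipocyte markers, with the weight of Scd1 in them, are given above. Markers of skeletal muscle summed to 2.33 to 8.94 FPKM in CAST and 1.86 to 3.57 FPKM in C57. The part of fat and muscle in the Car3 difference was not tested. Mt2, a metal-binding protein gene, had 69.7, 62.2, 37 and 44.2 FPKM in injured CAST, against 25.2, 30.5, 22.4 and 18.7 FPKM in injured C57, and was not called in naive ganglia.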

How the data were processed

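RNA of dorsal root ganglia was sequenced in 24 libraries, 4 in each of 6 groups of strain and injury. STAR 2.3.0 and the build mm10 are named in the submitters' processing notes; which counter and annotation were used, and how strand and multi-mapping reads were treated, is not given in the sources used here. FPKM is the unit the authors deposited, with 1 column per library. Low values multiplied by a gene's genomic span (GENCODE M21) fell on whole multiples for 68% of values within 0.05 reads, against 10% expected by chance, which gave estimated reads and totals. The plan named a count test if counts were found; the unit is FPKM, so limma was used on log2(FPKM + 1).

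A gene was kept if 4 or more libraries held 10 or more estimated reads of it, or 0.1 FPKM for IDs that have no span. A model of 6 group means was fitted to all 24 libraries with limma 3.58.1 in R 4.3.3 (18 residual degrees of freedom, trended and robust empirical Bayes), so naive and DBA libraries share in the estimate of the spread. Tests were two-sided, with Benjamini-Hochberg adjustment over all 27045 genes. P-values measure the spread between libraries. Estimated reads were computed from the FPKM, so they carry that spread too, along with counting error and the error of the estimate. In simulated data the fit recovered 65.7% of genes changed 1.5-fold and 98.5% of those changed 2-fold, on 26138 genes. Every simulated gene had the same dispersion of 0.01, the squared relative spread beyond counting, and genes of the lowest levels were not changed. These shares therefore do not hold for genes with a wider spread or a low FPKM. Copies were found with blastn 2.17.0.

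Members and gene lists were chosen with earlier results of these data known. Named genes are the largest called differences, in FPKM, in CPM and in the interaction, up to 3 members each way of every list, genes near absent in one strain, and members of the interferon, GTPase, MHC, growth, neuropeptide and nociceptor lists; others are marked in the text, and some genes under the rule are not reported here. Alternatives were a pseudocount of 0.1, other filters, scalings and models, a replicate block, and leaving out each library.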

Additional observations from a re-analysis of the deposited data

Results flagged for a closer look

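In 13 of 270 groups of 4 libraries, for the genes described, a library lay far from the other 3 of its group; chance gives about 1 in 20. In injured CAST ganglia these were the highest libraries of Lgals1 (101 FPKM), Htr1d (1.45), Bglap (1.71), Rps2 (2.36) and Kcnk16 (0.384 FPKM), and the lowest of Lss (1.67) and Mettl7a3 (6.19 FPKM). In injured C57 ganglia they were the highest of Trim25 (0.681 FPKM), Il6st (11.2) and Olfr1033 (0.154 FPKM), and the lowest of Mrgprb4 (4.11), Car8 (0.0882) and Gapdh (6.32 FPKM).

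For 87 of the 135 genes described, the strain difference in injured ganglia differed from that in naive ganglia by the interaction test of limma (adjusted p under 0.05, 13.1% of all genes tested). Some of the 135 genes were named because their interaction was called, so their share cannot be compared with that of all genes. The values below are the interaction, the log2 difference of CAST minus C57 in injured ganglia less that in naive ganglia. On the log2(FPKM + 1) scale it can be called where the fold hardly changed. Mrgpra2a, for example, was 14.9-fold lower in injured and 14.5-fold lower in naive CAST. Among interferon genes it was 3.55 for Ifi27l2a, 3.47 for Ifit1, 3.09 for Isg15, 2.85 for Ifit3, 2.28 for Bst2, 2.22 for Mx2, 2.10 for Rtp4, 1.20 for Oas1b, 0.77 for Mx1 and 0.28 for Trim25. Signal factors and GTPases had 1.23 for Irf7, 0.81 for Stat2, 0.55 for Irf9 and 0.62 for Gbp3. MHC genes had 2.02 for B2m, 1.94 for H2-Ea-ps, 1.61 for H2-T23, 1.57 for H2-Q2, 1.53 for H2-Q4 and for H2-D1, 1.31 for H2-K1, 0.86 for H2-Ab1, 0.84 for Cd74 and for Psmb8, and 0.36 for Tap1. All of these were positive.

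Complement and macrophage genes were at 1.15 for C4b, 0.92 for C1qa, 1.12 for Mpeg1 and 0.93 for Cd14, and at −0.21 for Cd59a, −0.17 for Mrc1 and for Cd163, and −0.20 for Folr2. Chemokine and B cell genes were at 1.11 for Cxcl10, 0.51 for Cxcl13, 0.45 for Ccl5, 0.29 for Ackr1 and 0.90 for Ighm, and at −1.18 for Ccl8. Growth, activin and transcription factor genes were at 0.61 for Junb, 0.82 for Anxa1 and 0.16 for Inhba, and at −0.58 for Fst, −1.23 for Sprr1a, −2.10 for Gpr151 and −1.14 for Thy1.

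Among peptides and their receptors the interaction was 1.68 for Gal, 1.43 for Cartpt, 1.11 for Npy and for Adcyap1, −1.48 for Sst, −0.81 for Crh, −0.39 for Cckbr and −0.94 for Cckar. Other neuronal genes had 0.54 for Htr1d, 0.37 for Gfra3, 0.23 for Mrgpra2a, 0.24 for Mrgpra2b, −0.78 for Mrgprb4, −1.01 for Mrgprb5, −0.28 for Trpa1, −0.40 for Htr3a, −0.68 for Chrna3, −0.59 for Kcnk16, −0.41 for Sema4f and −0.31 for Hoxb9. Glial, matrix and lipid genes had 1.08 for Gfap, 0.51 for Col5a2, 0.45 for Mmp2, −1.18 for Fabp7, −0.41 for Glul, −0.22 for Scd2 and −0.25 for Hmgcs1. The remaining genes had 1.33 for Klk4, 1.28 for Mt2, 0.66 for Ly6a, 0.31 for Mylk4, 0.26 for Eps8l3, 0.13 for Car8, −2.45 for Car3, −1.38 for Tmem88b, −1.37 for Fut1, −1.21 for Bglap, −1.09 for Sprr2a1, −0.36 for Mettl7a3, −0.30 for Olfr920 and −0.05 for Spink13.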

How the results depend on the processing

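The count of genes called in injured ganglia, 13185, stayed between 11548 and 13477 with the other pseudocount, filters, scalings and models, and between 12173 and 13642 with a library left out. The 2-fold count, 443, depended on the scale: it was 1470 with a pseudocount of 0.1, 1266 on the log2(CPM + 0.5) scale and 3704 with limma-voom on estimated reads, since a pseudocount of 1 shrinks low values, and 425 to 451 with a library left out. The naive count ranged from 10886 to 12180 and the interaction count from 3063 to 3804 with a library left out. Naive calls were higher in CAST for 54.8% as deposited and for 44.4% with upper-quartile scaling. Replicate numbers did not pair the libraries. For this, the mean of its group was subtracted from each gene's log2(FPKM + 1). The remaining deviations of same-numbered injured CAST and C57 libraries correlated across genes at 0.046, 0.065, 0.207 and −0.002. Not every library correlated best with its own number. With the replicate block 13350 genes were called in injured ganglia, 443 with 2-fold, 12022 in naive ganglia and 3652 by the interaction. Of the 135 genes described, 129 kept direction and side of the threshold in every alternative run; the exceptions were Gbp2, Iigp1, Cxcl10, Atf4, Trim25 and Gap43, and none reversed. Without a library, small counts also moved: lower cell cycle genes to 3, higher chaperones to 1, lower and higher oxidative phosphorylation genes to 5 and 3, higher identity factors to 2, and higher muscle and erythrocyte markers to 0. The causes were not tested. Depth limits genes with few reads, and C57 replicate 3 is the shallowest library.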

Other observations

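Several gene groups with less of a direction are given as counts of the genes higher and lower in injured CAST, beside 28.9% and 19.8% of all genes. Hox genes, which set position along the body axis, were higher for 12 of 30 and lower for 1 (6 and 2 with upper-quartile scaling). Hoxb9 was the lower one, with 0.842, 0.833, 1.12 and 1.08 FPKM in injured CAST, against 1.39, 1.41, 1.58 and 1.5 FPKM in injured C57. It was not called in naive ganglia. Axon guidance genes were higher for 8 of 47 and lower for 16. Sema3g, a repellent made by vessels, had 6.25 ± 0.667 FPKM in CAST and 2.64 ± 0.218 FPKM in C57, and Sema4f, a membrane-bound semaphorin, had 2.01 ± 0.0523 FPKM in CAST and 3.79 ± 0.155 FPKM in C57 (SD, n = 4 each). Sensory neuron identity factors were higher for 4 of 20 and lower for 4, among the lower ones Pou4f2, a POU-domain factor (1.9-fold lower). Potassium channels were higher for 8 of 36 and lower for 10. Kcnk16, a leak channel, was 2.69-fold lower in injured CAST and 5.55-fold higher in naive CAST. Sodium and calcium channels were higher for 9 of 25 and lower for 2 (5 and 7 with upper-quartile scaling), neurotransmitter receptors for 10 and 13 of 37, and neurotrophic factors and receptors for 10 and 2 of 26. Grik3, a kainate receptor subunit, was 2.02-fold higher.

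Of the housekeeping groups, oxidative phosphorylation was higher for 1 of 37 and lower for 8, constitutive proteasome subunits for 7 and 4 of 31 (2 and 11 with upper-quartile scaling), chaperones for 3 and 7 of 25, glutathione and detoxification for 10 and 10 of 37, and cell cycle genes for 10 and 6 of 27. Hspa8, a chaperone of the cytosol, was 1.34-fold lower. With its copies, however, it had 4610 ± 344 CPM in CAST and 4570 ± 144 CPM in C57. Matrix proteases and inhibitors were higher for 13 of 29 and lower for 5. The protease inhibitor gene Serpina3n was 1.59-fold higher in injured and 1.63-fold higher in naive CAST. Neutrophil markers were called for 1 and 1 of 12, erythrocyte markers for 1 and 0 of 8, and skeletal muscle markers for 2 and 0 of 15. Processed pseudogenes were higher for 33.9% and lower for 9.08% of 2369 tested, and other pseudogenes for 49% and 10.9% of 616, against 29.6% and 22.9% of 17966 protein-coding genes. On chromosome 17, which carries the H2 genes, 35.6% of the genes tested were higher.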
